A study of Mus musculus with 22 samples.

Results

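Untreated accumbens here means the 6 RNA-seq libraries, of 22 in the series, whose titles read H2O_Saline. The tissue was nucleus accumbens, and the donors were male mice of the C57BL/6J strain, 7 to 9 weeks old, raised conventionally, given plain water so that the labels call their microbiome normal, and injected with saline. The other 16 libraries, used only as a second set in which to read the same genes, came from mice of the same strain, sex and age that received morphine on plain water (H2O_Morphine, 5 libraries), antibiotics with saline (Abx_Saline, 6 libraries) or antibiotics with morphine (Abx_Morphine, 5 libraries), with morphine at 20 mg/kg per day for 7 days. All groups were bulk tissue, so fewer cells of a type and less RNA per cell cannot be told apart in any value below. The titles number the untreated libraries 3, 4, 5, 6, 8 and 9, and values are given in that order throughout. The labels do not say whether a library is 1 animal or a pool, so the spread between libraries may be partly technical.

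The nucleus accumbens is the ventral part of the striatum. Most of its neurons are GABAergic projection neurons that carry either D1 dopamine receptors, with dynorphin and substance P, or D2 dopamine receptors, with enkephalin. It receives glutamatergic axons from cortex, hippocampus, amygdala and thalamus, but the cell bodies that make the cortical vesicular glutamate transporter lie outside it, and it borders on cortex, septum, olfactory structures and the anterior hypothalamic region. Immediate early genes are transcribed within minutes of neuronal firing, so their RNA follows what a brain region was doing shortly before it was collected.

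The 6 libraries held 9678142 to 12266485 reads counted to genes, with a median of 11486895. Of 24061 genes in the table, 5358 had no read in any of the 6. A mean of at least 1 CPM (a library's counts scaled to a total of 1000000 over genes) was reached by 13859 genes, which carried 99.89% of the counts, and these were the genes examined. Reads that fell in no gene made up 9.22% to 10.13% of each library, and reads that did not map uniquely made up 10.38% to 11.92%, the highest share being that of library 5. Between the 15 pairs of libraries the counts differed by 3.55 to 11.5 times the variance that counting alone gives, so no library was a second copy of another. Xist had 0 to 2 reads per library and Ddx3y, on the Y chromosome, 402 to 592, as in male tissue.

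Defining genes of the labelled tissue were abundant. Ppp1r1b, which encodes the dopamine-regulated phosphatase inhibitor DARPP-32, stood at 1217 ± 142 CPM (SD, n = 6), and Arpp21, a phosphoprotein enriched in striatum, at 1340 ± 208 CPM (SD, n = 6). Of the D1 side, Drd1a was at 261 ± 33.6 CPM, Pdyn, the dynorphin precursor, at 385 ± 44.7 CPM, and Tac1, the substance P precursor, at 257 ± 11.8 CPM (SD, n = 6 each). Of the D2 side, Penk, the enkephalin precursor, reached 1431 ± 141 CPM, Adora2a, an adenosine receptor, 356 ± 48.8 CPM, and Drd2 156 ± 21.8 CPM (SD, n = 6 each). All 20 genes of a list of shared projection neuron genes passed 1 CPM, and they had a median mean level of 593 CPM.

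Counts were spread over many genes. The 10 most abundant genes took 2.41% ± 0.066 of gene counts, the top 100 took 13.35% ± 0.294 and the top 1000 took 45.9% ± 0.455 (SD, n = 6). Only 71 genes averaged 1000 CPM or more, and together these took 10.7% of counts, while 2555 genes averaged 100 CPM or more and took 67.99%. Mitochondrially encoded genes were not among the names in the table, so these shares are of nuclear genes.

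Ndrg4, a cytoplasmic protein of neurons, led the ranking by counts at 2956, 2885, 3044, 2937, 2934 and 2876 CPM. These 6 values lie within 1.06-fold of each other. Kif5a, a kinesin motor of axonal transport, followed at 2910 ± 243 CPM, with its low value, 2474 CPM, in library 4. Mbp, the myelin basic protein, came next at 2729 ± 104 CPM. Ncdn, a neuronal protein that promotes neurite outgrowth, was at 2574 ± 253 CPM (SD, n = 6 each). Ncdn was highest in library 4 (2944 CPM) and lowest in library 8 (2290 CPM).

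Beyond these, the leading 20 genes held the astrocytic glutamate transporter Slc1a2 (2317 ± 182 CPM), the elongation factor Eef1a1 (2091 ± 116 CPM) and Camk2a, the alpha subunit of a synaptic protein kinase (1871 ± 85.1 CPM). Synaptic and secretory proteins in it were Cplx2, a complexin that regulates vesicle fusion (1912 ± 108 CPM), the amyloid precursor App (1749 ± 35.7 CPM), its relative Aplp1 (1696 ± 31.8 CPM) and Cpe, the carboxypeptidase that trims neuropeptide precursors (1671 ± 13.2 CPM; SD, n = 6 each). Cpe was the steadiest of the 20, its lowest and highest library being 1650 and 1691 CPM, which is 1.05 times the variance of counting alone. The ranking also held Rn45s, the ribosomal RNA precursor, at 1916, 1545, 2323, 1542, 1477 and 1613 CPM. It is a noncoding RNA with many genomic copies, its reads can be split or lost by the counting, and its level is uncertain. The same caution holds for genes with near-identical copies, such as Eef1a1, Gapdh and the ribosomal protein genes.

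**Figure D1:**
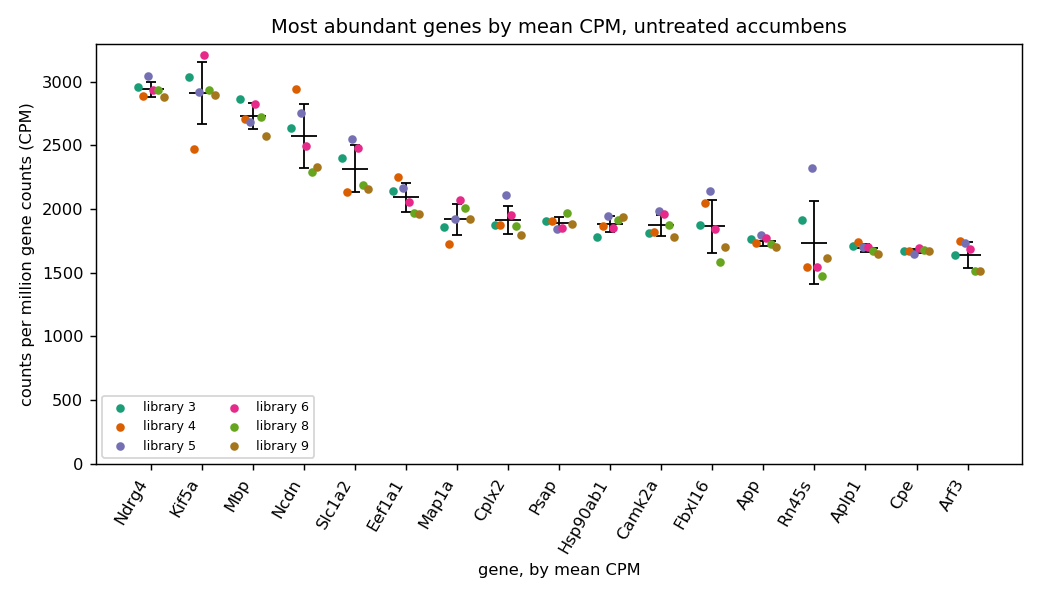
CPM in each of the 6 untreated libraries (coloured points) for the genes of highest mean CPM among those reported here, with the mean (bar) and SD (whiskers). Ndrg4, App, Aplp1 and Cpe show little distance between libraries, whereas Rn45s runs from 1477 to 2323 CPM.

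CPM rises with transcript length, so genes were also ranked per kilobase of their longest annotated transcript, which could be done for 99.16% of the genes examined. Only 8 genes appeared in the top 20 of both rankings. Mir6236, an annotated microRNA precursor of 123 bases, came out highest at 1385 CPM per kilobase, a value that its short length decides. Next on this scale came Eef1a1 (1165 CPM per kilobase), Cst3, the secreted protease inhibitor cystatin C (1101), the glycolytic enzyme Aldoa (1032), Penk (987.7), the lipoprotein Apoe (978) and brain creatine kinase Ckb (961), all in CPM per kilobase. Of the listed neuropeptide precursors, Penk led on both scales.

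To ask which genes differed between these untreated libraries, the SD of log2 CPM over the 6 libraries was divided by the median SD of the genes closest in mean level. This ratio is called the relative spread, and genes with a value of at least 2 are called variable. It describes these libraries and is not a test. By this rule 1026 of 13859 genes were variable, or 7.4% of all genes examined. The 3 genes just inside the boundary were Eps8l1, Sh2d5 and Rasal3 at 2.0001 to 2.0013, and the 3 just outside it were Nxpe3, Cend1 and Kcnma1 at 1.999 to 1.9995, with no gap between them. The share of variable genes was 5.48% among genes of 1 to 10 CPM, 7.07% from 10 to 100 CPM and 11.15% above 100 CPM, where the typical gene already varied 6.82 times as much as counting alone would give.

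The same ratio was computed in the other 16 libraries after removing their group means, in data that had no part in choosing the genes. There 1099 of 14001 genes were variable (7.85%). Of the 1025 variable genes of untreated tissue that could be examined in both sets, 594 were variable again, which is 57.95% of the untreated list and 55.41% of the other. Of the 50 genes with the greatest relative spread in untreated tissue, 49 were variable again. Read in each group alone, the share of untreated variable genes that were variable was 61.82% for H2O_Morphine, 57.91% for Abx_Saline and 46.82% for Abx_Morphine, where variable genes made up 10.2%, 9.51% and 7.27% of all genes.

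**Figure D2:**
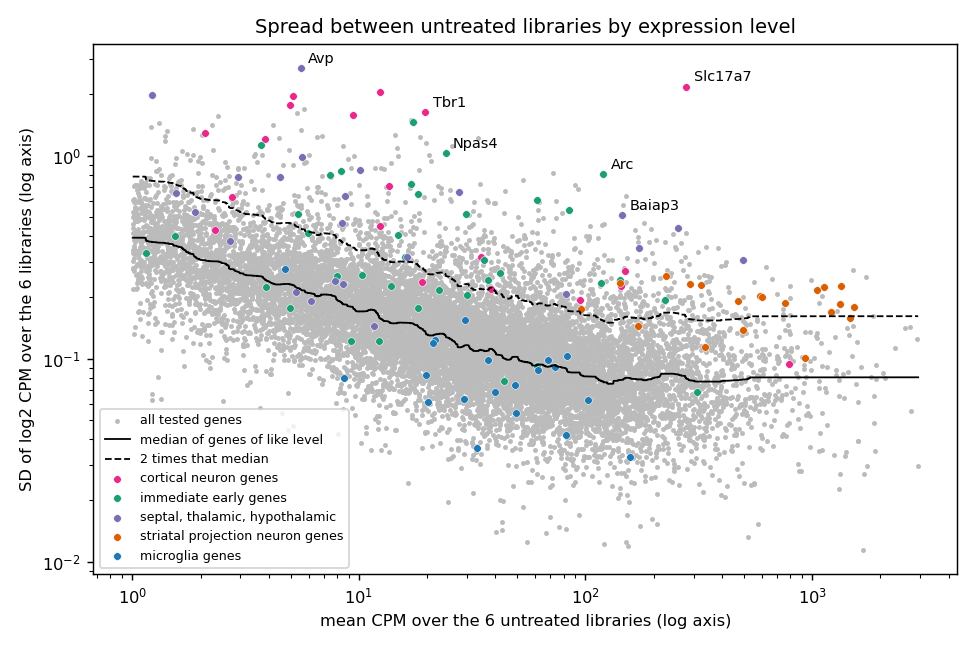
SD of log2 CPM over the 6 untreated libraries against mean CPM for 13859 genes, both axes on log scales, with the running median (solid line) and 2 times that median (dashed line, the boundary for variable genes). Slc17a7, Tbr1, Avp, Arc, Npas4 and Baiap3 stand far above the boundary, striatal projection neuron genes lie near it and microglia genes lie below it.

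Genes of cortical and claustral glutamatergic neurons had the widest spread. Slc17a7, the vesicular glutamate transporter VGLUT1, was at 240.4, 8.49, 249, 418, 593 and 163 CPM, with library 8 70-fold above library 4. Its relative spread of 27.7 was the highest of any gene above 100 CPM, and it was 23.4 in the other 16 libraries. Library 4 stands alone at the bottom, and libraries 6 and 8 are at the top. The same shape recurred in Tbr1, a transcription factor of cortical projection neurons (13.7, 1.51, 17.2, 34.3, 38.9 and 12.4 CPM), in Neurod6, a transcription factor of pyramidal neurons (2.85, 0.084, 5.68, 10.03, 9.78 and 2.41 CPM), and in Slc30a3, the transporter that loads zinc into glutamatergic vesicles (10.6, 0.336, 9.71, 16.5, 30.7 and 6.37 CPM).

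The members of the cortical list and of the lists below were chosen with earlier results of these data known. Their shares of variable genes may be raised by that choice and are descriptions only. In the whole list, 16 of the 20 measured cortical genes were variable (80%, against 7.4% of all genes), with a median relative spread of 3.51. Of these 20, 14 were lowest in library 4 and 13 were highest in library 8. Their summed level was 1616, 1277, 1727, 1862, 2058 and 1381 CPM. Ptk2b, at a mean of 790 CPM, was the largest part of this sum and was not variable, so the sum varies less than Slc17a7 does. Nr4a2, a nuclear receptor that marks claustrum and deep cortex, was lowest in library 4 (1.85 CPM) and highest in library 6 (31.1 CPM). Cck, the cholecystokinin precursor that cortical neurons share with some interneurons, ran from 5.72 CPM in library 4 to 62.5 CPM in library 8. Ptk2b, Rorb, Cux2 and Fezf2 of the list were not variable, with relative spreads of 1.16, 1.70, 1.97 and 1.44, and Lamp5 followed another order, highest in library 5 (169.6 CPM) and lowest in library 8 (117.9 CPM).

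Ordering the libraries by each gene showed how far the shape was shared. From low to high, Slc17a7 placed the libraries 4, 9, 3, 5, 6, 8. Exactly this order was found in 30 of the 1026 variable genes (2.92%), Slc17a7 included, and in 0.368% of all genes examined. Among the 30 were Tbr1, Cck, Nrn1, Neurod2 and Prss12. Variable genes beyond the fixed list included Nrn1, the activity-regulated neuritin (15.7, 1.51, 16.5, 21.8, 33.3 and 13.2 CPM), and Nptx1, a pentraxin of excitatory synapses (89.4, 36.8, 85.8, 126, 141 and 77.4 CPM). Both were lowest in library 4 and highest in library 8.

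Outside untreated tissue, Slc17a7 ran from 3.501 to 987.7 CPM in H2O_Morphine libraries, from 75.0 to 1222 CPM in Abx_Saline and from 134.5 to 845.6 CPM in Abx_Morphine. All 3 ranges overlap the untreated one. The summed cortical list, of which Ptk2b is a large part, ran from 1277 to 2058 CPM in untreated libraries. It ran from 1011 to 2623 CPM in H2O_Morphine, 1261 to 3034 CPM in Abx_Saline and 1344 to 2424 CPM in Abx_Morphine.

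**Figure D3:**
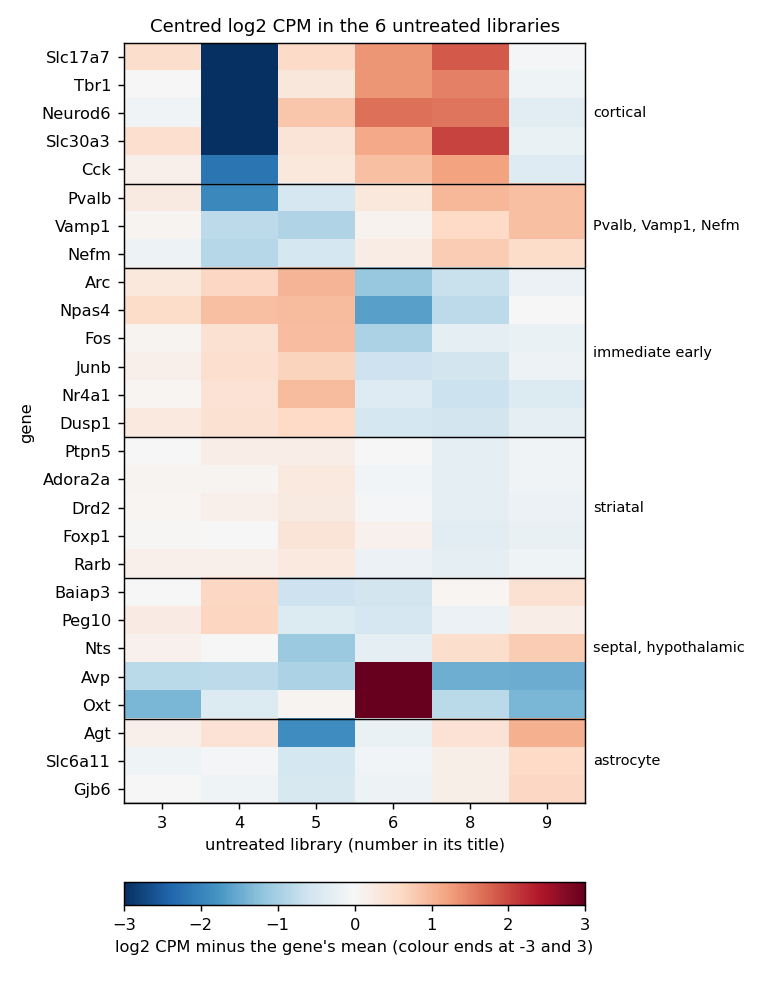
Colour scale of log2 CPM minus each gene's mean over the 6 untreated libraries, for 27 genes in the rows and the libraries, by the number in their titles, in the columns. Cortical genes are blue in library 4 and red in libraries 6 and 8, immediate early genes are reddest in library 5 and blue in libraries 6 and 8, and Avp and Oxt are red in library 6.

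Many immediate early genes varied too, in another order. Arc, which encodes a capsid-like protein of dendrites that removes AMPA receptors, was at 132, 163, 216, 48.3, 67.0 and 93.2 CPM. Libraries 3, 4 and 5 are high and libraries 6, 8 and 9 are low, without overlap between these sets. Npas4, a transcription factor that responds to calcium entry in neurons, was at 29.7, 37.9, 39.4, 6.40, 11.7 and 20.1 CPM, a range of 6.15-fold. Fos, a subunit of the AP-1 factor, was at 17.8, 23.2, 32.0, 8.60, 13.7 and 14.5 CPM. Nr4a1, a nuclear receptor induced by firing, was at 59.1, 76.0, 109, 43.2, 36.1 and 42.1 CPM, and Dusp1, a phosphatase that switches off MAP kinases, at 34.3, 38.8, 42.8, 19.3, 19.1 and 23.2 CPM. Each of these 5 genes had its 3 highest values in libraries 3, 4 and 5.

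Of the 36 immediate early genes listed, all passed 1 CPM and 20 were variable (55.56%, against 7.4% of all genes), with a median relative spread of 2.27. Of the 20, 10 had their 3 highest values in libraries 3, 4 and 5: Arc, Npas4, Fos, Junb, Nr4a1, Dusp1, Btg2, Cyr61, Gadd45g and Tiparp. The same set of libraries was on top in 14.3% of all variable genes and in 10.2% of all genes examined, so the set is not particular to the list. The full order of Arc, 6, 8, 9, 3, 4, 5 from low to high, was rarer. It was found in 7 variable genes (0.682%), and 6 of those were in the list: Arc, Npas4, Junb, Btg2, Fos and Gadd45g. Among all genes examined 0.289% had it.

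Members of the list did not all move together. Nr4a3, a close relative of Nr4a1, was higher in libraries 6, 8 and 9, at 3.02, 4.88, 5.79, 13.95, 11.1 and 11.5 CPM. Fosl2, another AP-1 subunit, was also higher in libraries 6, 8 and 9 (43.4, 42.6 and 37.3 CPM) than in libraries 3, 4 and 5 (26.01, 27.9 and 35.8 CPM). Egr1, a zinc-finger factor with substantial resting expression, was less spread, at 191.6, 222, 280.7, 232, 200.8 and 216 CPM. Bdnf, the growth factor, was lowest in library 4 (0.673 CPM) and highest in library 8 (7.66 CPM), close to the cortical shape. Jun, Ier2, Ier5, Fosb and Vgf were among the 16 that were not variable; Jun ran only from 39.6 to 46.8 CPM.

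Library 5 was the highest for 20 of the 36 immediate early genes. It also had the fewest gene counts, the highest share of reads not mapped uniquely, the highest level in 18 of 20 striatal genes, and the lowest summed level of the astrocyte list (9198 CPM, against 9281 to 9731 CPM); the part of these in the result was not tested. Without library 5 the number of variable immediate early genes was 16. The cortical genes, whose summed level was lowest in library 4 and highest in library 8, put library 4 on the opposite side from Arc. In the other 16 libraries Arc and Npas4 had relative spreads of 7.15 and 6.23, and 22 genes of the list were variable there.

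The promoters of 4 of the 10 genes with their 3 highest values in libraries 3, 4 and 5 are shown because cAMP response elements (CRE), to which the activity-regulated factor CREB binds, are a known route to their induction. The windows are the 250 bases before the annotated start in RefSeq, build GRCm38.p6, printed 5′ to 3′ along the gene's strand. Capitals mark the CRE core TGACG or its reverse complement CGTCA, and the full element TGACGTCA, which holds both. Fos lies at chr12:85473640-85473889 on the plus strand, Npas4 at chr19:4989972-4990221 on the minus strand, Nr4a1 at chr15:101266596-101266845 on the plus strand and Dusp1 at chr17:26508473-26508722 on the minus strand.
Fos: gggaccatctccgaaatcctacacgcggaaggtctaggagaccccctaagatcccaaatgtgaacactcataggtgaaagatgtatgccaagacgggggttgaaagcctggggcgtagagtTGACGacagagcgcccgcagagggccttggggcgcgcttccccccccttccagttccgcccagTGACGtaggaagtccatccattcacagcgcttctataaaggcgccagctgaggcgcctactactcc
Npas4: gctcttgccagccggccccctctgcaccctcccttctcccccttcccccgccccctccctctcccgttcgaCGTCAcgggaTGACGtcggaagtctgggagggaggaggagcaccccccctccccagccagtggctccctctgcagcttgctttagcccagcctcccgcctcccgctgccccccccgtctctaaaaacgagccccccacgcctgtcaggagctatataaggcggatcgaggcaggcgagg
Nr4a1: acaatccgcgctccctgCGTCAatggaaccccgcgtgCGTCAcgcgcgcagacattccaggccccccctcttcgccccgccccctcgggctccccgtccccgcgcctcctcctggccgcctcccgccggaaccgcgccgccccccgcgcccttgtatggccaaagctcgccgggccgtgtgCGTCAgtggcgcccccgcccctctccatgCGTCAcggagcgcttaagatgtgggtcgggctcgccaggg
Dusp1: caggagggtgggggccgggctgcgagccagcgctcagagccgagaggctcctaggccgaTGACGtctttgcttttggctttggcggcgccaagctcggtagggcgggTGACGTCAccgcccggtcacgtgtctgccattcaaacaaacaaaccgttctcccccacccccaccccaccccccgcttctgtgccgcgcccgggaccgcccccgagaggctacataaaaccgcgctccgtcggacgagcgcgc
Fos and Npas4 each hold 2 cores, Nr4a1 holds 4 and Dusp1 holds 3, of which 2 make up the full element. Promoter entries were found for 15 of the 20 variable immediate early genes, and 12 of them held at least 1 core; in the genes of the list that were not variable, the core was found in 6 of 11. Over all 27025 genes with an entry, 19.8% held it. Of the 12, Fos, Junb, Npas4, Nr4a1, Dusp1 and Btg2 were among the 10 genes above, whereas Egr2, Egr4, Nr4a2, Nr4a3, Homer1 and Bdnf were not. No core was found for the rest of the 10, Arc, Cyr61, Gadd45g and Tiparp, at least for Arc because it had no entry. The full element was found in Dusp1 and Btg2 of the variable genes and in Maff of the others, against 1.77% of all genes. The serum response element known as the CArG box was found in Egr2 alone among the listed genes with an entry, against 1.62% of all genes. Only exact matches within the 250 bases were searched. A box farther upstream or of another form would be missed, so its absence here does not show that a gene lacks one. A match in the letters is a description of the sequence and not evidence that a factor binds there.

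Genes of septum, thalamus and hypothalamus were also often variable but did not share an order. Of 23 measured, 15 were variable (65.22%, against 7.4% of all genes). Library 9 was highest for 8 of the 23, library 4 for 7, library 8 for 4 and library 6 for 3, and library 5 was lowest for 11 and library 4 for 5. Slc17a6, the vesicular glutamate transporter VGLUT2 of subcortical neurons, was lowest in library 4 (3.95 CPM) and highest in library 9 (15.5 CPM). Baiap3, a secretory vesicle protein of hypothalamic and other neurons, was at 139.9, 213, 89.7, 95.1, 145 and 190.3 CPM, highest in library 4 and lowest in library 5. Counting Baiap3 itself, 4 of the 23 had its 3 highest libraries, as did 9.70% of all genes. Peg10, an imprinted gene, was at 289.7, 381, 186, 172, 218 and 283 CPM. Dlk1, an imprinted Notch-related ligand, ran from 123 CPM in library 6 to 248 CPM in library 4, and Hap1, the huntingtin-associated protein abundant in hypothalamus, from 381 CPM in library 5 to 657.9 CPM in library 4. Nts, the neurotensin precursor, was lowest in library 5 as well (11.7 CPM) but highest in library 9 (43.1 CPM).

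Vasopressin and oxytocin belong to this list but stood in 1 library. Avp was at 0.245, 0.252, 0.207, 32.4, 0.088 and 0.086 CPM, so that only library 6 held more than a few reads. Oxt, the oxytocin precursor, was at 0, 0.168, 0.31, 6.78, 0.088 and 0 CPM, also highest in library 6. Both genes are known from magnocellular neurons of the hypothalamus. In the other groups Avp did not exceed 0.752 CPM in any library, whereas an H2O_Morphine library reached 23.1 CPM for Oxt. Of the other listed neuropeptide precursors known from hypothalamus, Trh was at 5.90 to 9.67 CPM in every library, while Hcrt stayed at or below 0.191 CPM and Pmch at or below 0.086 CPM, and Sim1 and Otp, transcription factors of the same neurons, were at 0.191 CPM or less. Without library 6, Avp and Oxt fell below 1 CPM and left the analysis. Summed over the list, levels were 1323, 1710, 957, 1017, 1222 and 1495 CPM in untreated libraries, and 1011 to 2267 CPM in H2O_Morphine, 1070 to 1772 CPM in Abx_Saline and 960.5 to 1660 CPM in Abx_Morphine libraries. The largest members in untreated libraries were Hap1, Peg10, Dlk1 and Baiap3, with means of 496, 255, 172 and 146 CPM. The sum mainly follows these genes and is not a measure of the whole list. Slc17a6 was lowest in library 4, where the sum was highest.

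**Figure D4:**
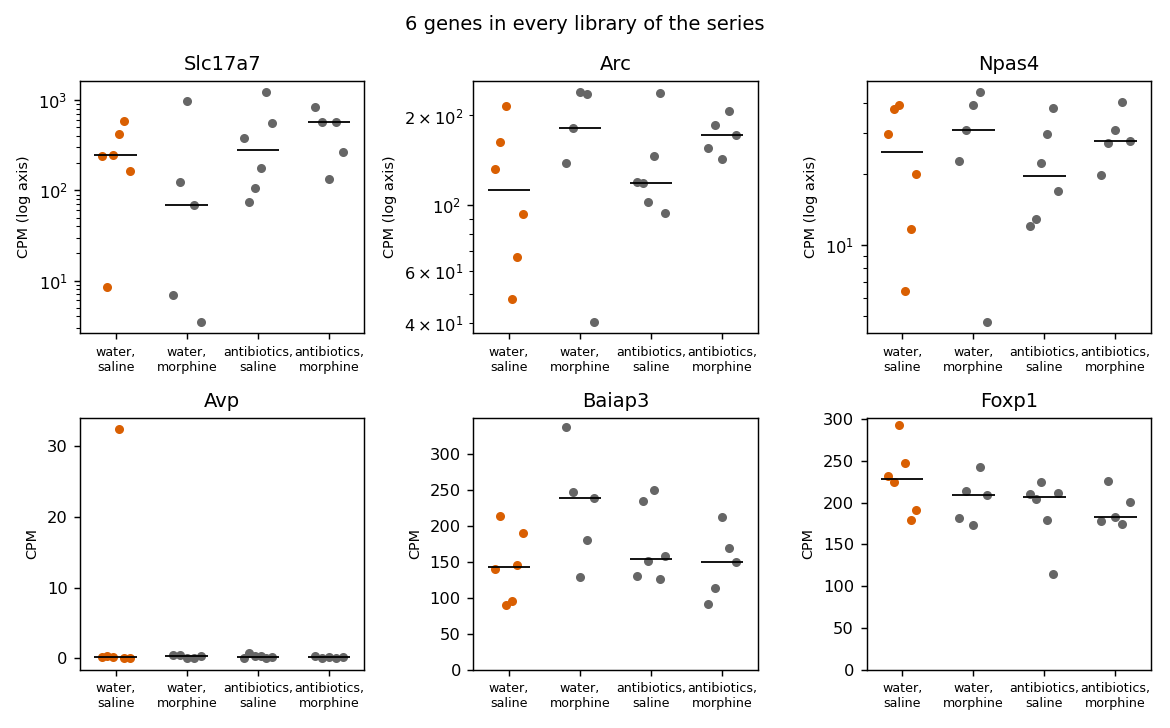
CPM of 6 genes in every library of the series, with untreated libraries in orange, the other groups in grey and the group median as a bar; Slc17a7, Arc and Npas4 have log axes. The untreated values of Slc17a7, Arc, Npas4 and Baiap3 lie within or overlap the ranges of the other groups, and the high Avp value is a lone untreated library.

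Striatal projection neuron genes varied as well. Of the 20 shared genes 15 were variable (75%, against 7.4% of all genes), with a median relative spread of 2.39 over the list. Foxp1, a transcription factor of these neurons and the member of highest relative spread (3.04), was at 232, 224, 292.6, 247, 179 and 191 CPM, 1.64-fold from lowest to highest. Ptpn5, a tyrosine phosphatase enriched in striatum, was at 763, 875.5, 866, 751, 622 and 698 CPM. Library 5 was highest for 18 of the 20 genes and library 8 was lowest for 19. Without library 5 the number of variable genes was 10, without library 8 it was 11, with a threshold of 3 it was 3, and by edgeR's dispersion it was 4. Drd1a and Ppp1r1b each dropped below the threshold without library 5 or library 8. Of the 9 genes in each of the D1 and D2 lists, 3 were variable (33.3%, against 7.4% of all genes). Adora2a and Drd2 were among them, at relative spreads of 2.54 and 2.51. Tac1, at 244.6 to 270.7 CPM, was not variable, and neither was Penk, at 1239 to 1637 CPM. In the other 16 libraries both were, at 2.51 and 3.12.

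Interneuron genes split by type. Sst and Npy, which are largely made by the same interneurons, were very steady: Sst was at 262, 257, 254, 257, 263 and 265 CPM and Npy at 76.8, 77.95, 80.6, 79.5, 77.0 and 76.0 CPM, with relative spreads of 0.288 and 0.356. Pvalb, which marks parvalbumin interneurons, was at 14.6, 3.03, 8.47, 15.1, 24.4 and 22.7 CPM, high in libraries 8 and 9 and low in library 4. Calb2, calretinin, was also high in those libraries (32.9 and 36.0 CPM) and lowest in library 5 (10.4 CPM). Vamp1, a synaptobrevin, at 85.5, 47.3, 43.7, 87.7, 123 and 153 CPM, and Nefm, a neurofilament subunit of large axons, at 127, 76.9, 96.8, 163, 239 and 205 CPM, likewise had their 2 highest values in libraries 8 and 9. In the list as a whole 8 of 18 genes were variable (44.4%, against 7.4% of all genes).

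In the oligodendrocyte, microglial and vascular lists the share of variable genes was no higher than the 7.4% of all genes. Lists of this size would hold few variable genes at that share. None of the 22 myelin genes, 14 oligodendrocyte precursor genes, 20 microglia genes or 22 interferon-stimulated genes was variable, and of the 20 endothelial genes only Slc2a1, the glucose transporter of the blood-brain barrier, was. The relative spread of Slc2a1, 2.39, became 1.31 without library 6. Of the 15 mural cell genes only Mylk was variable (6.67%), so both vascular lists lay near the share of all genes. Csf1r, the microglial growth factor receptor, was at 155.5 to 160.4 CPM in 5 libraries and 151 CPM in library 5. The astrocyte list had 5 variable genes of 20 (25%, against 7.4% of all genes). Agt, angiotensinogen, was at 19.4, 23.4, 4.65, 15, 23.4 and 36.4 CPM, and Slc6a11, a GABA transporter of astrocytes, at 236.9, 249.9, 178, 245, 291 and 388 CPM. Library 9 was highest for 12 of the 20 and library 5 lowest for 13. None of 79 ribosomal protein genes and none of 78 oxidative phosphorylation genes was variable either (median relative spreads of 0.955 and 0.823), although 71 of the former were highest in library 4 and 45 of the latter in library 8.

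Genes of neighbouring tissue that is not neuronal were mostly low. Ttr, the defining choroid plexus transcript, ran from 0 to 1.88 CPM. Clic6 and Cab39l, which choroid plexus shares with brain tissue, were at 27.8 to 32.3 CPM and 24.6 to 28.6 CPM. All 6 hemoglobin genes of the list were listed at 0 in every library, as was Rpl26, a ribosomal protein gene that every cell uses, so a listed 0 can be a loss in counting and these genes say nothing of blood. Alas2, the erythroid heme enzyme, was at 3.45 to 11.1 CPM with library 6 highest. In the subventricular and olfactory list 5 of 17 were variable (29.4%, against 7.4% of all genes). Synpr, the member of highest relative spread (3.87), was highest in library 5, at 204 CPM, against 164 CPM in library 4. Also variable were the proliferation genes Top2a (1.71, 5.97, 3.93, 3.25, 1.67 and 1.03 CPM) and Mki67, and Dcx of migrating neuroblasts. All 3 were highest in library 4, as was Cd24a (11.4 CPM). The list as a whole was mixed. Library 4 was highest for 7 of the 17 and lowest for 3, while libraries 5 and 8 were highest for 4 each. Without library 4 Mki67 and Dcx dropped to relative spreads of 1.93 and 1.25. Ccdc153, of ciliated ependymal cells, was also highest in library 4, at 3.11 CPM.

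The library that lay farthest from the median differed by gene. For the 1026 variable genes it was library 4 in 309, library 5 in 300, library 8 in 245, library 9 in 123, library 6 in 33 and library 3 in 16. Over all genes examined the shares were less uneven: library 4 took 20.2%, library 5 23.4% and library 8 18.6%, against 30.1%, 29.2% and 23.9% of the variable genes. Only 31 variable genes (3.02%) were spread by 1 extreme library by Dixon's criterion on log2 CPM, against 4.51% of all genes.

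**Figure D5:**
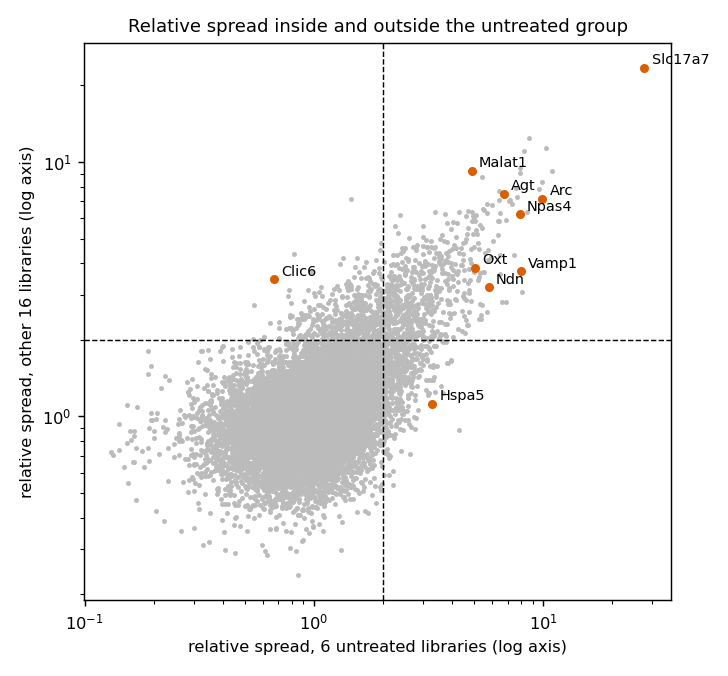
Relative spread in the 6 untreated libraries against relative spread in the other 16, on log axes, with dashed lines at 2. Slc17a7 is at 27.7 and 23.4, Arc, Npas4 and Agt are above 2 on both axes, Hspa5 is above it only in untreated tissue and Clic6 only in the other libraries.

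Some genes were variable in one set of libraries and not in the other. Hspa5, the chaperone of the endoplasmic reticulum, had a relative spread of 3.28 in untreated libraries, with 420.5 CPM in library 9 and 266 CPM in library 3, and 1.12 in the other 16. Clic6 had 0.669 and 3.46. These differences were not tested.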

How the data were processed

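Bulk RNA-seq counts of 22 nucleus accumbens libraries were used, of which 6 form the untreated group. Per the labels' protocols, RNA was taken with TRIzol, cDNA was made from total RNA with the SMARTer kit and sheared, and the molecule is given as polyA RNA. Per the submitters' processing notes, FastQC, STAR 2.4.0 and edgeR were used. No source used here names the counter, strand setting, genome build or annotation, so reads from overlapping genes on opposite strands cannot be told apart. The authors deposited whole-number read counts per gene; their normalised table was not used. Rows of counts outside genes were left out of totals, and CPM used plain totals over genes. Spread was the SD of log2 CPM with a prior count of 2, over genes averaging at least 1 CPM, divided by the median of the genes nearest in level. Depth and precision follow from 9678142 to 12266485 gene counts per library. On simulated counts, 89% of genes given an added log2 SD of 0.5 and 97% given 1 were called, and 0.439% of 13656 unchanged genes. The simulation drew every unchanged gene at edgeR's dispersion trend, without scatter of genes around it or changes shared between genes. The last share is therefore not a rate of false calls in these data. R 4.3.3, edgeR 4.0.16, DESeq2 1.42.0 and Python 3.11.15 were used. Alternatives were other scalings, filters, spread measures and thresholds, and leaving out each library. In 27 rows the gene name had become a date, and these are counted but not named. The genes named were the 20 of highest CPM, the 10 highest per kilobase, the 10 of greatest relative spread in each of 3 bands of level, up to 4 variable genes per list (or else its 2 highest) and 8 reference genes. Other genes are named as members of the lists or of a shared order and were chosen after their values were seen. Of the genes the rule names, 4 are not reported here. The members and lists were chosen with earlier results of these data known.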

Additional observations from a re-analysis of the deposited data

Results flagged for a closer look

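Of 147 values examined (115 named genes, 27 list sums and 5 library measures), 9 had an extreme library by Dixon's ratio. This is the gap to the nearest library divided by the range, and chance exceeds its limit in about 1 in 20 groups. The list of mitochondrially encoded genes had no members in the table, so its sum could not be flagged. For genes and list sums the ratio was taken on CPM, where a single low library weighs less than on log2 CPM. Slc17a7 was not flagged on CPM (0.299). As log2 CPM minus its mean, it was at -4.26 in library 4 and at -0.025 to 1.84 in the others. Avp (0.995) and Oxt (0.954) were high in library 6, at 32.4 and 6.78 CPM. In the same library Ndn, an imprinted gene of neurons, was at 327 CPM against 138.5 to 167 CPM (0.847), and the nuclear RNA Malat1 at 391 CPM against 162.5 to 233 CPM (0.691). Library 8 was high for Ptgds, the prostaglandin D synthase of meninges and oligodendrocytes (330.2 CPM against 136 to 184 CPM, 0.75), and for Fmod, a matrix protein of fibroblasts (8.10 CPM against 2.69 to 3.995 CPM, 0.759). Library 5 was high for the share of reads not mapped uniquely (11.92%, 0.701). Ckb was high in library 9 (1481 CPM, 0.647), and the summed CPM of ribosomal protein genes in library 4 (17818, 0.659).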

How the results depend on the processing

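The number of variable genes was 1039 with TMM scaling, 1053 with DESeq2 size factors, 916 with a minimum of 5 CPM, 1062 without a filter and 713 by edgeR's dispersion (621 shared). It became 1551 with the median absolute deviation (829 shared), 2430 at a threshold of 1.5 and 308 at 3. The share of variable genes farthest from the median in library 4, 5 or 8, 83.24%, was 76.01% at 1.5 and 88.31% at 3. Per kilobase, 8 of the 20 most abundant genes stayed. Leaving out each library gave 954 to 1195 variable genes, 13.26% to 13.42% of counts in the top 100 genes, an overlap with the other libraries of 50.41% to 60.82%, and the same 20 top genes. Of the named genes called with all libraries, Pdyn, Mki67, Dcx and Mylk fell under 2 without library 4, Drd1a, Plin4, Bhlhe40 and Ppp1r1b without library 5, Ndn, Pdyn, Slc2a1 and Per2 without library 6, Drd1a, Gpr6, Igfbp2, Fmod, Mylk, Bhlhe40 and Ppp1r1b without library 8, and Mki67, Gjb6, Ntsr2, Hspa1a and Chordc1 without library 9. Ndn went from 5.80 to 1.36 and Fmod from 2.25 to 0.845. Under edgeR's dispersion 4 of 20 shared striatal genes were variable. The list counts and the share by library under each setting were added after seeing the data. No paired analysis was possible because the results come from no test between groups. Genes near 1 CPM have about 10 reads per library, where counting limits what spread can be seen.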

Other observations

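Several noncoding RNAs varied between the untreated libraries as well, and 7 of 12 measured members of the noncoding list were variable (58.3%, against 7.4% of all genes). The list is not of long noncoding RNAs of the nucleus alone. The ribosomal RNA precursor Rn45s was among its variable members and was highest in library 5 (2323 CPM). Meg3, an imprinted RNA of neurons, was at 1318, 1868, 1131, 1766, 1600 and 1404 CPM, highest in library 4 and lowest in library 5. Miat, a nuclear RNA of neurons, was at 38.9, 51.4, 31.0, 66.4, 72.1 and 51.3 CPM, and Neat1, the scaffold of paraspeckles, at 35.0, 33.8, 27.6, 51.4, 53.3 and 36.0 CPM. Both were highest in library 8 and lowest in library 5.

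Of 24 glucocorticoid-responsive genes 6 were variable (25%, against 7.4% of all genes), led by Sgk1, a kinase induced by corticosterone (72.8, 90.4, 90.6, 112, 71.5 and 61.7 CPM). Of 19 clock genes 3 were variable (15.8%), and Per2, a repressor of the clock, was at 46.4, 60.1, 48.9, 75.1, 55.7 and 59.9 CPM. Both were highest in library 6. Of 19 heat shock genes 4 were variable (21.1%); Hspa1a and Hspa1b, near-identical genes whose reads are hard to assign, were highest in library 9 at 7.40 and 5.34 CPM.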
